A study of Mus musculus with 16 samples.

Results

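The genes described are 10 that encode the CDK1-cyclin B kinase and the enzymes that set its timing: Cdk1, the B-type cyclins Ccnb1, Ccnb2 and Ccnb3, the phosphatases Cdc25a, Cdc25b and Cdc25c, the kinases Wee1 and Wee2, and Mos. They were chosen by name from the 24063 genes counted, with earlier results of these data known, and the counts of all 10 were found. Their transcripts were read in 16 libraries, each labelled as a single mouse embryo at the two-cell stage, of which 8 were f/wt and 8 Δm/wt. Mothers of both groups were young superovulated females of mixed C57BL/6J and 129 background, homozygous for a Kdm1a allele whose first exon is flanked by loxP sites. They were mated with wild-type B6D2F1 males, and the embryos were collected after the first cleavage. The mothers of Δm/wt embryos also carried cre under the promoter of Zp3, which is active in growing oocytes, so that these embryos lacked the maternal store of the histone demethylase KDM1A (LSD1) and kept an intact paternal allele. f/wt embryos inherited the floxed allele intact. In other two-cell embryos the study found S phase delayed in Δm/wt, by labelling of new DNA. The cell cycle phase of the sequenced embryos was not tested and may differ between the groups.

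Entry into mitosis is driven by CDK1, a kinase that is active only when bound to a cyclin. WEE kinases hold the complex off by phosphorylating CDK1, CDC25 phosphatases remove that phosphate, and degradation of cyclin B by the anaphase-promoting complex ends mitosis. In the oocyte the same switch holds the arrests of meiosis: WEE2, an oocyte form of WEE1, and the phosphatase CDC25B act at the prophase arrest and its end, and MOS, a kinase upstream of the MAP kinases, keeps the mature egg in metaphase until fertilisation. The two-cell embryo then changes from transcripts stored by the oocyte to its own, and the same pathway may be read from either supply.

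Genes of mitotic entry are known for promoters with CCAAT boxes, which bind the factor NF-Y, and with a cell cycle homology region, TTTGAA or TTCGAA. In Δm/wt embryos Cdk1 transcripts were lower and Ccnb2 transcripts higher, while the change in Ccnb1 did not pass the test, as described below. For this reason the upstream sequences of the kinase and its main cyclins are shown. Each holds the 180 bases before the RefSeq gene start (GRCm38.p6), written from 5′ to 3′ on the strand of the gene, with each CCAAT (or ATTGG, its complement) and each TTTGAA in capitals. They lie at chr10:69352913-69353092 for Cdk1, chr13:100786487-100786666 for Ccnb1 and chr9:70421555-70421734 for Ccnb2, all on the minus strand.
Cdk1: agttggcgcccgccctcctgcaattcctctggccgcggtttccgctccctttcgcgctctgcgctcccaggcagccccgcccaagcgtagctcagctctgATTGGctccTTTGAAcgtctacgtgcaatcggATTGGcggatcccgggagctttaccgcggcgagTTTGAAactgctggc
Ccnb1: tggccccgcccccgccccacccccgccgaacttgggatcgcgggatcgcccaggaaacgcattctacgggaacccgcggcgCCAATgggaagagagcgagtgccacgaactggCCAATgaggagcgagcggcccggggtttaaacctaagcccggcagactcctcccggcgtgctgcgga
Ccnb2: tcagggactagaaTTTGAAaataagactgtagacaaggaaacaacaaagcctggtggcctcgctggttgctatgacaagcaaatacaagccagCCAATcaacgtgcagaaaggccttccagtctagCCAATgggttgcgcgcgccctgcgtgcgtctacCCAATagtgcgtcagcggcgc

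All of these promoters held CCAAT boxes, at -80 and -48 in the stretch shown for Cdk1, at -99 and -67 for Ccnb1, and at -87, -54 and -21 for Ccnb2, counted back from the gene start to the first base of the match. Cdk1 also held TTTGAA at -71 and -15. Ccnb2 held TTTGAA at -167 and again at base 5 after the gene start, past the stretch shown. A RefSeq promoter of 250 bases before to 50 after the start was matched for 7 of the 10 genes (Cdk1, Ccnb1, Ccnb2, Ccnb3, Cdc25a, Cdc25b and Wee2). Wee1 and Mos had no entry. Any entry on chromosome 18, where Cdc25c lies, was left out for these genes but kept among all promoters. The motif counts thus do not cover Cdc25c and Wee1, which were lower in Δm/wt. On either strand, 6 of the 7 held CCAAT, all but Ccnb3, against 37.4% of 32851 promoters of the same length. TTTGAA was found in 2 of them, Cdk1 and Ccnb2, against 17.9% of all promoters, and TTCGAA in 1, Cdc25b, against 1.56%. These matches are letters in a window and were not tested as sites.

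Levels are counts per 1000000 (CPM) after TMM scaling between libraries. The libraries held 3212510 to 9337451 gene counts in f/wt and 4049168 to 14334244 in Δm/wt, and Δm/wt 8 had the fewest genes with a count, 11250. The libraries f/wt 2 and f/wt 3 differed by little more than sampling noise (a mean chi-square per gene of 1.89, against 45.6 to 366 in the other 55 pairs within a group). The labels name them as separate embryos, and whether both came from 1 embryo is not known. Their sum was used as 1 sample, so that n was 7 for f/wt and 8 for Δm/wt. Transcripts of the deleted gene, Kdm1a, were lower in Δm/wt, 1.24 ± 1.46 CPM (SD, n = 8) against 9.998 ± 6.00 CPM (n = 7), or -2.99 ± 1.01 (SE) on the log2 scale (adjusted p = 0.0211 in edgeR). The ranges overlapped, since the control f/wt 6 had 0.991 CPM, on 8 counts, and 4 mutant embryos had 1.07 to 4.03 CPM. Reads were counted over the whole gene and its paternal copy, so these counts do not check the deletion of exon 1 itself.

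The genes of mitotic entry moved in both directions at once in Δm/wt embryos. The kinase transcript Cdk1, the phosphatase transcript Cdc25c and the somatic WEE kinase transcript Wee1 were lower, whereas Ccnb2, Ccnb3, Cdc25a, Cdc25b and the oocyte kinase Wee2 were higher. Of the 9 genes with enough counts for the test, 8 passed an adjusted p of 0.05 in the quasi-likelihood test of edgeR, 5 higher and 3 lower. Across all 11344 genes tested 44.7% passed, 21.9% higher and 22.8% lower. Ccnb1 did not pass, and Mos fell below the filter on low counts and was not tested. A level in CPM is a share of the library, and less RNA of a gene per cell cannot be told apart from more RNA of other genes.

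**Figure D1:**
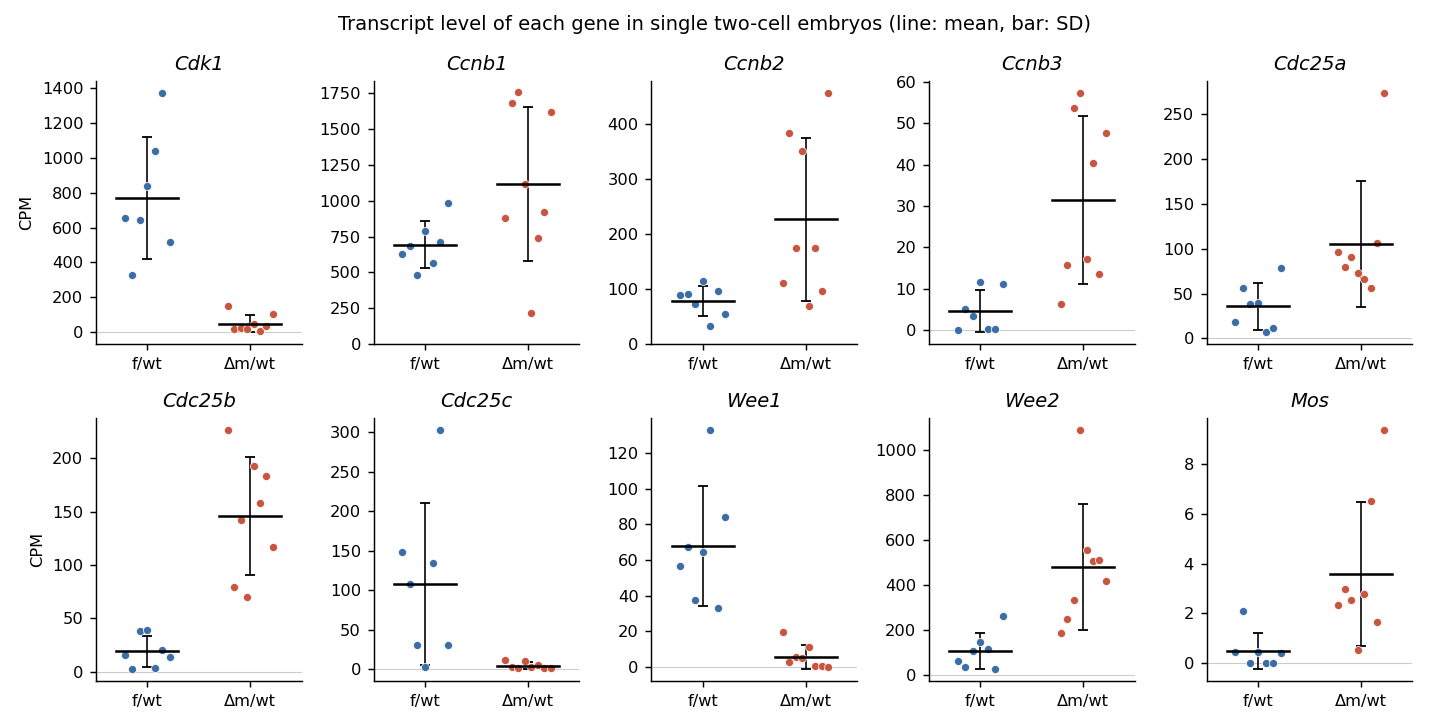
CPM after TMM scaling (vertical axis, own scale for each gene, from 0) of the 10 genes in each embryo, with 7 f/wt points (blue; f/wt 2 and 3 are 1 point) and 8 Δm/wt points (red), the mean as a line and the SD as a bar. In Cdk1 and Wee1 all Δm/wt points lie below all f/wt points, in Cdc25b they all lie above, and in the other genes the points of the groups overlap.

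Cdk1, which encodes the catalytic subunit itself, was 16-fold lower in Δm/wt embryos. In f/wt it ranged from 327.3 CPM in f/wt 2 and 3 through a median of 654.7 to 1373 CPM in f/wt 7. In Δm/wt it ranged from 8.07 CPM in Δm/wt 6 through a median of 27.7 to 149.1 CPM in Δm/wt 1. The highest mutant embryo was thus below the lowest control, and only Δm/wt 8, at 100.5 CPM, came near Δm/wt 1. This amounted to -4.00 ± 0.58 (SE) on the log2 scale (95% interval -5.19 to -2.80; adjusted p = 2.16e-05). Within embryos 1 to 3 it was -2.97 and missed the threshold (adjusted p = 0.0523), and within embryos 4 to 8 it was -4.45 (adjusted p = 1.59e-04). The only controls within embryos 1 to 3 were f/wt 1 and the sum of f/wt 2 and 3. The labels name no batch, and these sets follow the study's list of sequenced reads, in which embryos 4 to 8 are alike and embryos 1 to 3 differ from them and among themselves. The gene lies at 69336635 to 69352912 on chromosome 10 in mm10, and RefSeq now places its 3′ end 1489 bases beyond this span. Reads from that stretch were not counted, in either group, although the libraries read mainly 3′ ends. Of the 4375 bases of its longest coding transcript, 2860 lay inside the span. Whether Cdk1 transcripts ended at the same place in both groups was not tested.

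The cyclins that CDK1 binds did not follow it. Ccnb1, the main mitotic cyclin, had 480.8 CPM (f/wt 4) to 983.2 CPM (f/wt 8) in f/wt with a median of 682.8, and 214.0 CPM (Δm/wt 5) to 1756 CPM (Δm/wt 3) in Δm/wt with a median of 1016. The mutant embryos reached beyond the controls on both sides, 4 above the highest control and 1, Δm/wt 5, below the lowest. On the log2 scale the difference was 0.69 ± 0.36 (95% interval -0.06 to 1.43; adjusted p = 0.121), so neither no change nor a rise of more than 2-fold was outside the interval. Without Δm/wt 5 it was 0.85 and passed (adjusted p = 0.0286). With scaling to Hprt, Gapdh and Ppia it was 1.45 (adjusted p = 0.00896), where the median of all genes was itself 0.86.

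Ccnb2, a B-type cyclin that also supports meiotic maturation in the mouse oocyte, rose 2.9-fold. In f/wt it ranged from 33.4 CPM through a median of 89.4 to 114.1 CPM, and in Δm/wt from 68.8 CPM in Δm/wt 5 through a median of 174.7 to 457.6 CPM in Δm/wt 8. Of the mutant embryos 5 lay above every control, and the rest fell among them. The rise was 1.52 ± 0.44 on the log2 scale (adjusted p = 0.00799), and within embryos 1 to 3 it was 1.29 (adjusted p = 0.147). Both Ccnb1 and Ccnb2 have a pseudogene named after them in the annotation, Ccnb1-ps and Ccnb2-ps, and how reads that match both copies were assigned by the unique best alignment was not tested.

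Ccnb3, a cyclin of meiosis that is needed for the metaphase-anaphase transition of the first meiotic division in mouse oocytes, was scarce in controls and rose 7.0-fold. The controls had 0 to 11.7 CPM with a median of 3.41, and the mutant embryos 6.20 to 57.4 CPM with a median of 28.8. All mutant embryos but Δm/wt 1, the lowest of them, lay above the highest control. The log2 fold change was 2.80 ± 0.98 (adjusted p = 0.0255). It kept its direction but missed the threshold within embryos 4 to 8 (2.73, adjusted p = 0.0842) and within embryos 1 to 3 (3.27, adjusted p = 0.153).

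The 3 CDC25 phosphatases, which activate the kinase, differed in direction. Cdc25c, a form regulated by phosphorylation at mitotic entry, had the largest fall of the 10 genes in the main edgeR fit. With limma-voom Wee1 (-4.60) and Cdk1 (-4.52) fell more than Cdc25c (-4.34). They also did in edgeR with the embryo number as a block (Wee1 -4.72, Cdk1 -4.43, Cdc25c -4.23). The controls ranged from 2.38 CPM in f/wt 5 through a median of 107.8 to 303.5 CPM in f/wt 7, and the mutant embryos from 0.627 CPM in Δm/wt 8 through a median of 2.50 to 11.6 CPM in Δm/wt 1. All controls but f/wt 5 lay above every mutant embryo, and the controls themselves spread widely, with a coefficient of variation of 95.3%. It fell by 4.65 ± 0.85 on the log2 scale (95% interval -6.42 to -2.89; adjusted p = 2.19e-04). The gene overlaps Gm3550 on the opposite strand, with no shared exonic bases in GENCODE M21.

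Cdc25b, the phosphatase that mouse oocytes need to resume meiosis, rose 7.7-fold with no overlap between the groups. It had 2.48 CPM (f/wt 2 and 3) to 38.8 CPM (f/wt 5) in f/wt with a median of 16.01, and 69.8 CPM (Δm/wt 4) to 226.9 CPM (Δm/wt 1) in Δm/wt with a median of 150.4. Every mutant embryo exceeded every control. The rise came to 2.94 ± 0.56 on the log2 scale (95% interval 1.79 to 4.09; adjusted p = 2.96e-04). Spef1, on the opposite strand, shares 92 exonic bases with Cdc25b. Spef1 was far below Cdc25b (means of 1.47 CPM, f/wt, and 3.49 CPM, Δm/wt), and whether the counting used strand was not given in the sources used here.

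Cdc25a, the phosphatase of S phase and mitosis in dividing cells, rose 2.9-fold. In f/wt it ranged from 6.94 CPM through a median of 38.3 to 78.7 CPM, and in Δm/wt from 55.8 CPM through a median of 84.9 to 273.6 CPM. The groups overlapped, and 1 mutant embryo, Δm/wt 8, stood far above the next one at 106.9 CPM. The log2 fold change was 1.55 ± 0.52 (adjusted p = 0.0203). Without Δm/wt 8 it was 1.18 and missed the threshold (adjusted p = 0.0542). It also missed the threshold with library totals (1.16, adjusted p = 0.0618), within embryos 4 to 8 (1.71, adjusted p = 0.0798) and within embryos 1 to 3 (1.25, adjusted p = 0.157).

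The WEE kinases, which hold CDK1 inactive, parted as well. Wee1, the form of dividing somatic cells, was 12-fold lower in Δm/wt. It ranged from 33.0 CPM in f/wt 7 through a median of 64.6 to 133.2 CPM in f/wt 6, against 0.209 CPM in Δm/wt 8 through a median of 3.86 to 19.5 CPM in Δm/wt 1. No mutant embryo reached the lowest control, and in Δm/wt 6, 7 and 8 the level rested on 4, 3 and 1 counts. The log2 fold change was -3.58 ± 0.79 (95% interval -5.22 to -1.94; adjusted p = 0.00114), and without Δm/wt 1 it was -4.20. Transcripts listed for 1600010M07Rik, an antisense gene that overlaps Wee1 without shared exonic bases, averaged 6.10 CPM (f/wt) and 0.886 CPM (Δm/wt).

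Wee2, the oocyte form, rose 4.5-fold. The controls ranged from 26.5 CPM in f/wt 7 through a median of 104.4 to 260.5 CPM in f/wt 8, and the mutant embryos from 185.1 CPM in Δm/wt 1 through a median of 461.8 to 1091 CPM in Δm/wt 4. Only f/wt 8 reached into the range of the mutant embryos, of which 6 lay above it. The log2 fold change was 2.18 ± 0.48 (95% interval 1.17 to 3.18; adjusted p = 0.00124), and it passed within embryos 1 to 3 (2.42, adjusted p = 0.0187) and within embryos 4 to 8 (2.25, adjusted p = 0.00487).

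Mos, the kinase that holds the egg in metaphase, was close to the limit of detection. In the f/wt libraries 1 to 8 it had 3, 7, 23, 0, 4, 0, 0 and 3 counts, and in the Δm/wt libraries 1 to 8 it had 15, 12, 26, 4, 22, 47, 15 and 45 counts. The 0 counts came from f/wt 4, 6 and 7, where 3 counts would correspond to 0.348, 0.374 and 0.382 CPM of the library total. The controls averaged 0.474 ± 0.734 CPM and the mutant embryos 3.59 ± 2.92 CPM. Without the filter on low counts the log2 fold change was 2.71 ± 1.303 and did not pass (adjusted p = 0.09998), in a fit where 37.2% of 18907 genes passed.

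**Figure D2:**
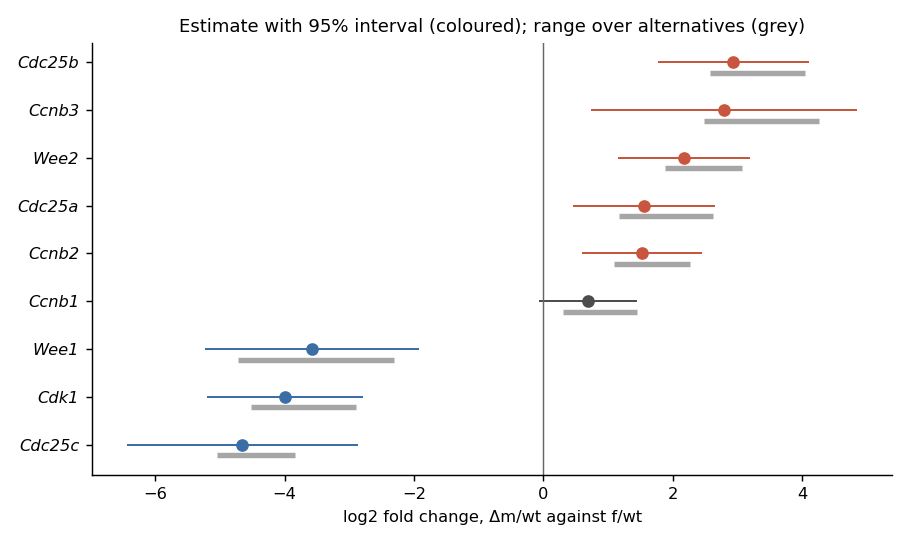
Log2 fold change of Δm/wt against f/wt (horizontal axis) for the 9 genes tested, with the 95% interval of edgeR as a coloured line (red higher, blue lower, dark grey not passed) and, below it, the range over 28 alternative fits as a light grey bar. The 3 genes that were lower lie between -4.65 and -3.58 and the 5 that were higher between 1.52 and 2.94, and no grey bar crosses 0.

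All 9 genes kept their direction when libraries were scaled by their totals, by the size factors of DESeq2 or by the sum of Hprt, Gapdh and Ppia. The median over all genes, 0.04 with TMM, became -0.32 with library totals and 0.86 with the 3 reference genes. These genes differed between the groups themselves: Ppia was lower (-1.71, adjusted p = 4.01e-04), Gapdh was higher (1.27, adjusted p = 0.0258), and Hprt did not pass (-1.01, adjusted p = 0.0954). Relative to that median, Cdk1 stood at -4.04 with TMM, -4.02 with library totals and -3.76 with the reference genes, and Cdc25b at 2.90, 2.90 and 2.76. Ccnb1, the gene that did not pass, stood at 0.65, 0.63 and 0.59.

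The order of the levels was compared per length, as CPM per kb of the longest coding transcript inside the span that was counted. In f/wt embryos the kinase and its main cyclin led with nearly equal levels, Ccnb1 at 298.7 ± 70.4 (SD, n = 7) and Cdk1 at 269.4 ± 121.9 CPM per kb, and Ccnb1 was the higher of them in 4 of 7 embryos. Cdc25c (55.7), Ccnb2 (51.6) and Wee2 (36.9 CPM per kb) followed without a clear order between neighbours, which held in 3 and 5 of 7 embryos. Wee1 at 20.005 was above Cdc25a at 9.87 CPM per kb in all 7, whereas Cdc25a exceeded Cdc25b at 6.17 in 3. Ccnb3 (0.991) and Mos (0.327 CPM per kb) were lowest. Reads came mainly from 3′ ends, so that length corrects the levels only in part. For Cdk1 the last 1489 bases of the RefSeq 3′ end were not counted, against 0 for Ccnb1, so the order of these genes is uncertain.

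In Δm/wt embryos Ccnb1 remained first at 481.4 ± 232.6 CPM per kb (n = 8) and Wee2 came next at 166.7 ± 96.9, above Ccnb2 at 148.5 in 5 of 8 embryos. Cdc25b (47.4) and Cdc25a (29.0 CPM per kb) stood above Cdk1, which had moved to sixth place at 16.9 ± 17.6. Ccnb1 was thus above Wee2 in 7 of 8 embryos, Cdc25b above Cdc25a in 7 and Cdc25a above Cdk1 in 7. Ccnb3 (6.91), Mos (2.48), Cdc25c (2.20) and Wee1 (1.66 CPM per kb) closed the order. Cdk1 was above Ccnb3 in 5 of 8 embryos, and each of the last neighbours exceeded the next in 6 or 7 of 8 embryos.

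**Figure D3:**
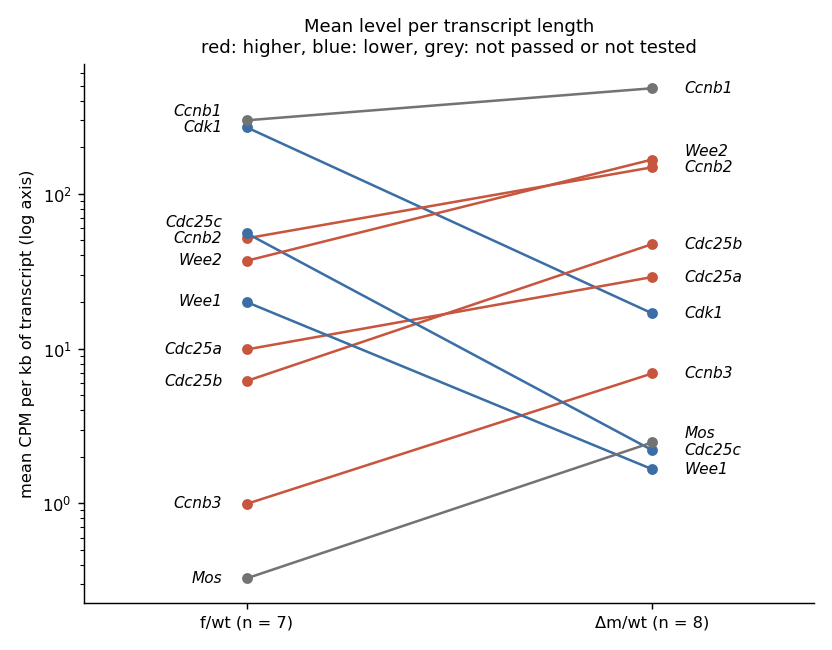
Mean CPM per kb of transcript on a log axis in f/wt (n = 7) and Δm/wt (n = 8) for the 10 genes, with 1 line per gene. Cdk1 falls from 269.4 to 16.9 while Ccnb1 stays first, and Cdc25c lies above all 5 red genes in f/wt and below them in Δm/wt.

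Ratios of a pair of genes within the same library do not depend on the scaling between libraries. They are given as log2 of counts with 0.5 added and carry no test. The ratio of Ccnb1 to Cdk1 was -0.06 ± 0.80 (SD, n = 7) in f/wt, from -0.95 to 1.06, and 4.94 ± 1.82 (n = 8) in Δm/wt, from 2.30 in Δm/wt 5 to 6.91 in Δm/wt 2. Cyclin and kinase transcripts were thus counted in near equal numbers in controls, and the cyclin dominated in every mutant embryo. Among the cyclins, Ccnb2 to Ccnb1 was -3.19 ± 0.63 in controls and -2.36 ± 0.71 in mutant embryos, with overlap.

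The ratio of the oocyte to the somatic WEE kinase, Wee2 to Wee1, was 0.41 ± 1.01 in controls and 7.42 ± 2.59 in mutant embryos. The lowest mutant embryo, Δm/wt 1 at 3.24, exceeded the highest control, f/wt 8 at 1.63. A phosphatase against a kinase, Cdc25a to Wee1, was -1.20 ± 1.497 in controls and 5.23 ± 2.68 in mutant embryos, again without overlap (highest control 0.02, lowest mutant 2.30). Cdc25b to Cdc25a was -1.04 ± 1.84 in controls and 0.55 ± 0.95 in mutant embryos, and Mos to Ccnb1 was -11.53 ± 1.99 and -8.44 ± 1.54, both with overlap. Across the tested genes themselves, the groups did not overlap in 3 of 9, Cdk1, Cdc25b and Wee1, against 16.2% of all genes tested. Those that lay lower without overlap were 2, Cdk1 and Wee1, against 9.04% of all genes, and 1 lay higher, Cdc25b, against 7.18%. As the genes were chosen with earlier results known, these shares too are a description.

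**Figure D4:**
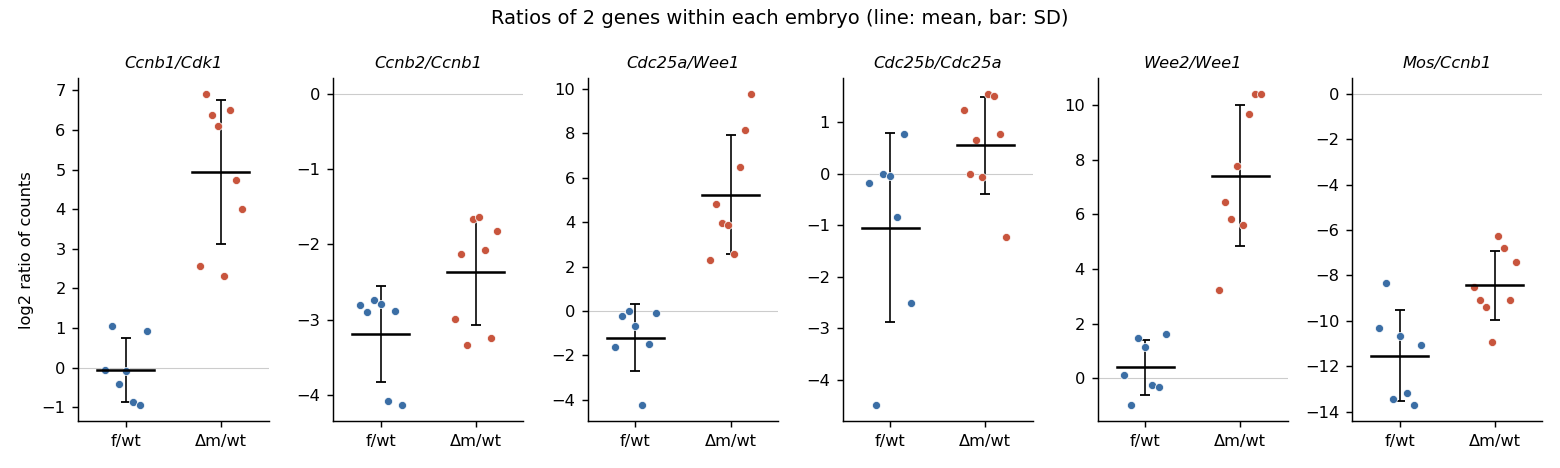
Log2 ratio of the counts of a pair of genes in each library (vertical axis, own scale for each ratio), with 7 f/wt points (blue), 8 Δm/wt points (red), the mean as a line and the SD as a bar. The ratios of Ccnb1 to Cdk1, Cdc25a to Wee1 and Wee2 to Wee1 show no overlap between the groups, with means of 4.94, 5.23 and 7.42 in Δm/wt.

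The mutant embryos were not alike. Δm/wt 1 lay nearest to the controls in 5 of the 8 genes that passed: it was the highest mutant embryo in Cdk1, Cdc25c and Wee1 and the lowest in Ccnb3 and Wee2. It was at the same time the highest in Cdc25b, 226.9 CPM, on the side away from the controls. Without Δm/wt 1 the log2 fold change was -4.51 for Cdk1, -5.05 for Cdc25c, 2.95 for Ccnb3 and 2.30 for Wee2. The 8 markers of the two-cell embryo, among them Zscan4c and Zfp352, summed to 6230 CPM in Δm/wt 1, 117.7 to 2253 CPM in the other mutant embryos and 1386 to 5012 CPM in f/wt. The largest parts of the sum in Δm/wt 1 were Gm20767 (2691 CPM) and B020004J07Rik (2483 CPM). Among the mutant embryos, Zscan4c was highest in Δm/wt 4 and Zscan4d in Δm/wt 8. All 8 markers were detected in both groups, 2 of the 7 tested fell (Tcstv1 and Tcstv3) and none rose. This share of 28.6% was below the 44.7% of all genes tested that passed. Among the controls, f/wt 5 lay nearest to the mutant embryos in 4 of the 8 genes, Ccnb2, Ccnb3, Cdc25b and Cdc25c.

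Most oocyte markers were higher in the mutant embryos. The 10 oocyte markers, among them Zp3, Gdf9 and Bmp15, summed to 1792 to 3631 CPM in controls and to 10720 to 28150 CPM in mutant embryos. Of the 10, 9 rose, all but Nlrp5, against 21.9% of all genes tested that were higher. The part of the oocyte markers in the rise of Wee2, Cdc25b and Ccnb3 was not tested. The cumulus cell markers summed to 0.138 to 10.1 CPM in controls and to 1.25 to 31.4 CPM in mutant embryos, with Ptx3 and Amh at 0 in every library. The blastocyst markers summed to 204.7 to 461.4 CPM in controls and 24.8 to 111.4 CPM in mutant embryos. Of the 6 tested, however, only Gata4 fell (from 224.0 to 8.77 CPM), Gata3 rose (from 0.804 to 17.7 CPM) and 4 did not pass. In all 33.3% of these markers passed, against 44.7% of all genes tested. These markers were named after their values were seen. Of the sperm markers, 5 of 6 were at 0 throughout.

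The wider network around CDK1 was counted in 6 lists of 49 genes, of which 47 were tested, and 13 were higher and 8 lower, with a median log2 fold change of 0.06 against 0.04 for all genes tested. The share that passed, 44.7%, was that of all genes tested, so the network as a whole was at the background, and the counts below are set against 21.9% of all genes higher and 22.8% lower. Among the binding partners and activators of CDK1, 2 of 8 tested rose and 1 fell, in all 37.5% against 44.7% of all genes tested. The small CDK-binding subunits rose, Cks1b from 152.6 ± 56.8 to 840.5 ± 376.5 CPM (2.46 ± 0.38 on the log2 scale, adjusted p = 4.68e-05, no overlap) and Cks2 from 1313 ± 320 to 3022 ± 1275 CPM (1.20 ± 0.33, adjusted p = 0.00538). Mnat1, the assembly factor of the CDK-activating kinase, fell from 161.8 ± 80.0 to 22.6 ± 39.7 CPM (-2.84 ± 0.82, adjusted p = 0.00830). Ccna2, which encodes cyclin A2, did not pass, with 1204 and 883.8 CPM (-0.45, adjusted p = 0.207), and its sign turned with scaling to the reference genes (0.40).

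Of the kinases and 14-3-3 proteins that control CDC25, 3 of 8 tested rose and 3 fell, in all 75.0% against 44.7% of all genes. The checkpoint kinases went opposite ways: Chek1 rose from 87.7 ± 111.1 to 361.3 ± 281.5 CPM (2.04 ± 0.69, adjusted p = 0.0216), and Chek2 fell from 58.1 ± 26.0 to 10.1 ± 15.5 CPM (-2.52 ± 0.76, adjusted p = 0.0112, and 0.217 with scaling to the reference genes). Ywhaz, a 14-3-3 protein, rose from 94.7 ± 38.5 to 404.6 ± 112.0 CPM without overlap (2.10 ± 0.34, adjusted p = 6.57e-05). The family did not move one way: of the other 14-3-3 genes of the list, named after their values were seen, Ywhae rose (1.32 ± 0.30, adjusted p = 0.00155) and Ywhah fell from 430.9 ± 188.9 to 129.8 ± 56.3 CPM without overlap (-1.73 ± 0.36, adjusted p = 6.99e-04). Aurka, a kinase that activates PLK1, had means of 219.4 and 116.7 CPM, which missed the threshold (adjusted p = 0.126) but passed with library totals (-1.32, adjusted p = 0.0325).

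The Greatwall pathway restrains the phosphatase PP2A-B55, which reverses the phosphorylations made by CDK1. Here 3 of 7 tested rose and none fell, a share of 42.9%, near the 44.7% of all genes. They were Mastl, the Greatwall kinase, from 102.3 ± 43.9 to 419.2 ± 246.6 CPM (2.03 ± 0.46, adjusted p = 0.00144), and its substrates Arpp19, from 42.3 ± 26.7 to 181.6 ± 105.9 CPM (2.10 ± 0.48, adjusted p = 0.00167), and Ensa, from 6.74 ± 9.81 to 37.2 ± 35.6 CPM (2.46 ± 0.82, adjusted p = 0.0196, and 0.0549 with library totals). The B55 subunit Ppp2r2a did not pass, at 180.4 and 276.9 CPM (adjusted p = 0.138), but did when the reference genes set the scale (1.62, adjusted p = 0.00884).

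Downstream of MOS, in the MAP kinase pathway and the cytostatic factor that holds the egg in metaphase, 5 of 9 tested rose and 1 fell, in all 66.7% against 44.7% of all genes. Fbxo43, which encodes the inhibitor EMI2 of the anaphase-promoting complex, rose from 43.5 ± 23.9 to 293.3 ± 144.4 CPM (2.75 ± 0.46, adjusted p = 9.44e-05) and Rps6ka3, a ribosomal S6 kinase, from 31.1 ± 15.6 to 161.9 ± 54.7 CPM (2.38 ± 0.42, adjusted p = 1.43e-04), neither with overlap. Map2k2, a MAP kinase kinase, fell from 11.8 ± 15.2 to 0.781 ± 0.703 CPM (-3.91 ± 1.20, adjusted p = 0.0118, and 0.0511 with scaling to the reference genes). Map2k1, the more abundant MAP kinase kinase of the list, named after its values were seen, rose. It went from 216.4 ± 104.7 to 924.7 ± 607 CPM (2.095 ± 0.433, adjusted p = 6.60e-04 in edgeR).

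For the destruction of cyclin B, 2 of 6 tested fell and none rose, a share of 33.3%, below the 44.7% of all genes. Fbxo5, which encodes EMI1, the mitotic counterpart of EMI2, fell from 159.3 ± 79.8 to 28.2 ± 35.8 CPM (-2.50 ± 0.56, adjusted p = 0.00143), and Cdc20, an activator of the anaphase-promoting complex, from 143.8 ± 68.0 to 48.5 ± 31.1 CPM (-1.57 ± 0.44, adjusted p = 0.00733, and 0.188 with scaling to the reference genes). Anapc11, a catalytic subunit of that complex, missed the threshold at 72.0 and 27.3 CPM (adjusted p = 0.0702) but not with library totals (-1.77, adjusted p = 0.0291).

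Of the transcription factors of G2/M genes, 1 of 9 tested fell and none rose, a share of 11.1%, below the 44.7% of all genes. Nfyb, a subunit of the CCAAT-binding factor NF-Y, fell from 117.9 ± 31.1 to 17.7 ± 19.99 CPM without overlap (-2.73 ± 0.64, adjusted p = 0.00198, and 0.0513 with scaling to the reference genes). Nfyc, another subunit, was at 211.8 ± 49.0 and 223.2 ± 104.7 CPM (0.08 ± 0.33, 95% interval -0.60 to 0.76, adjusted p = 0.864), and its sign turned with library totals (-0.37).

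**Figure D5:**
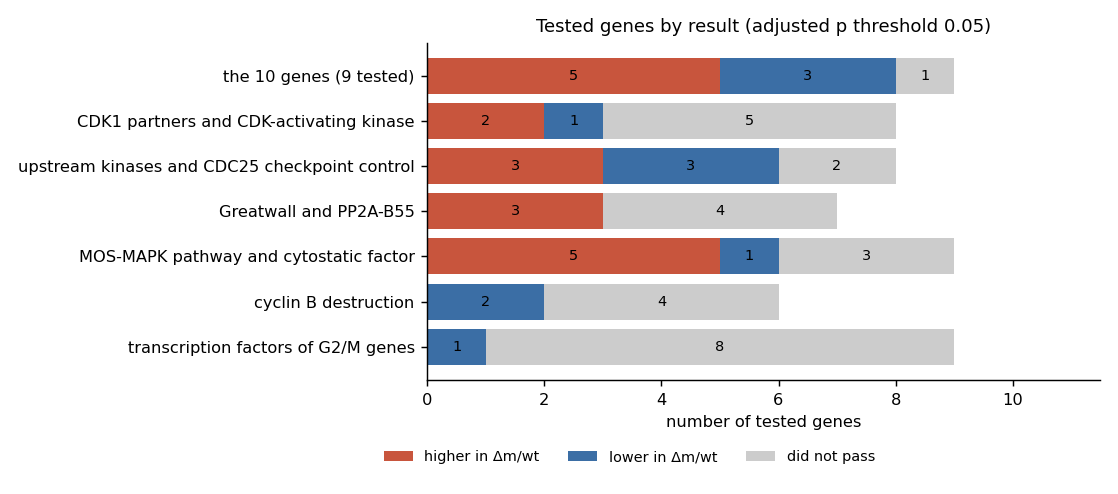
Number of tested genes (horizontal axis) that were higher in Δm/wt (red), lower (blue) or did not pass (grey) in edgeR, for the 10 genes of mitotic entry and for the 6 lists around them. The 10 genes have 5 higher and 3 lower among 9 tested, the cyclin B destruction list has 2 lower and none higher, and the G2/M transcription factors have 1 lower among 9.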

How the data were processed

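By the labels, each of 16 embryos gave 1 library. The authors made it from the embryo's lysate with oligo-dT priming, which reads polyadenylated transcripts mainly at their 3′ ends. For the deposited gene counts, the authors aligned reads to mm10 with TopHat2 (2.0.6) and counted unique alignments over RefSeq genes with HTSeq (0.6.1), and these raw counts were used here. The strand setting and annotation release are not given in the sources used here. Reads carried no molecular identifiers, so the floors given for 0 counts cover counting error only, whereas the intervals of edgeR include the spread between samples. The deposited repeat counts were not used. Nothing in the labels says that embryos came from separate litters, so p-values measure the spread between these samples.

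The counts of f/wt 2 and 3 were summed. Of the 18907 genes with at least 1 count, the 60% with the most counts in total (11344) entered the test. They were tested in R (4.3.3) with the quasi-likelihood test of edgeR (4.0.16) after TMM scaling, with Benjamini-Hochberg adjustment over all genes tested and a threshold of 0.05. The script was tested on simulated data. Alternatives were library totals, DESeq2 (1.42.0) size factors and test, the sum of Hprt, Gapdh and Ppia, no filter, limma-voom (limma 3.58.1), f/wt 2 and 3 kept separate, embryos 1 to 3 or 4 to 8 alone or as a batch term, the embryo number as a block, and each library left out. Deviations from the group means correlated by -0.0682 to 0.0935 between same-numbered embryos, for the 6 numbers shared by the groups. The main fit therefore did not pair samples by number. Whether same-numbered embryos shared a litter or a day of collection was not tested.

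The 10 genes and all lists were chosen with earlier results of these data known. Named from each list of pathway genes were up to 3 that passed with at least 10 CPM in a group and the largest change, and the most abundant one that did not pass. The result of 1 such gene is not reported here. Marker lists covered the two-cell embryo, oocyte, cumulus cells, blastocyst and sperm. Coordinates are those of the count files (mm10), transcript lengths and overlaps come from GENCODE M21, and promoters from RefSeq (GRCm38.p6).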

Additional observations from a re-analysis of the deposited data

Results flagged for a closer look

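Among the 20 groups of values (10 genes in each genotype), 3 held an embryo far from the rest by Dixon's criterion. It flags about 1 in 20 groups of normally distributed values by chance. Here it was applied to CPM without a log, for which that rate was not tested. Cdc25a had 273.6 CPM in Δm/wt 8, where the next mutant embryo had 106.9 CPM, and its call was lost without this embryo. Wee2 had 1091 CPM in Δm/wt 4, against 554.7 CPM in the next. Mos had 2.07 CPM in f/wt 2 and 3, on 30 counts, against 0.432 CPM in the next control.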

How the results depend on the processing

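No gene changed direction in any of the 28 alternatives, and Cdc25b, Cdc25c, Wee1 and Wee2 also stayed past the threshold in all of them. Within embryos 1 to 3 the log2 fold changes -2.97 (Cdk1), 1.29 (Ccnb2), 3.27 (Ccnb3) and 1.25 (Cdc25a) did not pass, which left 2 genes higher, and within embryos 4 to 8 2.73 (Ccnb3) and 1.71 (Cdc25a) did not, which left 3 higher. These fits hold fewer samples, and within embryos 1 to 3 the only controls were f/wt 1 and the sum of f/wt 2 and 3. Cdc25a also missed the threshold with library totals (1.16), and Ccnb1 passed with scaling to Hprt, Gapdh and Ppia (1.45). Leaving out 1 library at a time gave 0.56 to 0.85 for Ccnb1 and 1.18 to 1.71 for Cdc25a, with 4 to 6 genes higher and 3 lower. Among all genes, 2488 higher and 2583 lower became 1892 and 3116 with library totals and 3636 and 1446 with the reference genes, and 1466 and 1725 within embryos 4 to 8. None of the ratios moved by more than 1 SD.

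With the embryo number as a replicate block, the 10 genes again had 5 higher and 3 lower (Cdk1 -4.43, Wee1 -4.72, Cdc25c -4.23, Ccnb3 3.99), and all genes 2195 and 2378. Only 3 of 12 samples correlated best with their own number.

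In the lists, the CDK1 partners had 1 higher within embryos 1 to 3, 2 lower with library totals and with limma-voom, and 0 lower within embryos 1 to 3. The CDC25 control list had 0 lower with the reference genes and within embryos 1 to 3. The Greatwall list had 5 higher with the reference genes, 1 higher within embryos 1 to 3, and 1 lower with library totals. The MOS-MAPK list had 0 lower with the reference genes, limma-voom, the block and embryos 4 to 8, and 2 within embryos 1 to 3. Cyclin B destruction had 1 lower with the reference genes and within embryos 4 to 8, and the transcription factors had 0 lower with the reference genes and within embryos 1 to 3. Leaving out 1 library gave 1 to 2 lower among the CDK1 partners, 2 to 3 higher and 2 to 4 lower in CDC25 control, 2 to 4 higher in Greatwall and 2 to 3 lower in cyclin B destruction. Mos at 0 to 47 counts per library is the member that depth limits most.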
